A study of Mus musculus with 24 samples.

Results

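Amphiregulin (Areg) and the other ligands of the EGF receptor whose RNA is followed here, Hbegf, Ereg, Tgfa and Btc, were measured in ILC2 and CD4 T cells sorted from the recovering colon of 8 mice. The 5 genes were taken by name from a table of 27179 genes. Each library came from colonic lamina propria of a Nmur1iCre-eGFP mouse, in which the Nmur1 gene drives eGFP and Cre, that had drunk 3% dextran sulfate sodium (DSS), an agent injuring the gut lining, over 5 days, followed by 3 days of plain water. Intraperitoneal injections every other day gave either NMU, the neuropeptide ligand of the receptor NMUR1, or PBS, the vehicle. From each mouse, 3 populations were sorted: eGFP+ ILC2 (CD45+ Lin- CD90.2+ CD127+ KLRG1+), eGFP+ CD4 T cells (CD45+ CD3+ CD5+ CD4+, called NMUR1+ here) and eGFP- CD4 T cells (NMUR1- here). This gave 6 groups of 4 libraries, with NMU in mice 1 to 4 and PBS in mice 5 to 8. The labels name 4 mice per treatment, whereas the series' design text counts 3. All groups carried the reporter and had received DSS, so no uninjured colon serves as a baseline. The sources used here give no age or sex.

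EGF receptor ligands are made as membrane-anchored precursors that proteases of the ADAM family release, and they act on epithelial and stromal cells that carry the receptor. Areg is a low-affinity ligand known from ILC2 and regulatory T cells in mice, where it takes part in the repair of injured epithelium. Hbegf, Ereg and Btc bind ErbB4 as well as the EGF receptor, and Tgfa binds the EGF receptor alone.

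Areg lies on mouse chromosome 5 (gene 11839, protein coding, GRCm38.p6 chr5:91139599-91148432, plus strand) in a cluster of related ligands. Ereg (gene 13874, chr5:91074617-91093649), whose start region overlaps an annotated non-coding gene, lies 45949 bases before it, and Btc (gene 12223, chr5:91357261-91402994) lies 208828 bases after it. The 3 ligands together span 328378 bases. Tgfa (gene 21802) is on chromosome 6 (86195038 to 86275744). The RefSeq promoter table of GRCm38.p6 held 3 of the 5 genes, Areg, Tgfa and Btc. The 250 bases before the Areg start (chr5:91139349-91139598, plus strand) are shown because Areg carried nearly all of the ligand RNA; capitals mark a cAMP response element and a TATA box.

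Areg: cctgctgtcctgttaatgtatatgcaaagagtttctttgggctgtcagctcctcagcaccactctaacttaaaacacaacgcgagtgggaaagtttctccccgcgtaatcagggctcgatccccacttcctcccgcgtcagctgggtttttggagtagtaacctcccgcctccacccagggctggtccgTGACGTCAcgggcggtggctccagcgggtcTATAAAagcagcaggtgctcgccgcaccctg

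The cAMP response element, TGACGTCA on either strand, began 61 bases before the Areg start and was not found in the Tgfa and Btc windows of 300 bases. It occurred in 508 of 32851 such windows (1.55%). TATAAA on either strand began 31 bases before the Areg start, was not found in the Tgfa and Btc windows, and occurred in 12.4% of all windows. The AP-1 motif TGANTCA on either strand was in none of the 3 windows and in 6.75% of all. These matches describe letters, not bound sites.

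Total counts per library ran from 8485266 to 17854961. ILC2 libraries had little RNA of T cell markers, with Cd3e at 0 to 12.2 CPM (counts scaled to a common library size of 1e6), against 698 to 1034 CPM in NMUR1+ and 818 to 1002 CPM in NMUR1- libraries. Gata3, a transcription factor that defines ILC2, stood at 4272 to 6607 CPM in ILC2, 1100 to 1971 CPM in NMUR1+ and 290 to 668.9 CPM in NMUR1- libraries. Nmur1, whose reporter set the gate, had a mean level of 234 ± 56.6, 41.2 ± 24.2 and 4.37 ± 2.55 CPM in these populations (SD, n = 8 each). Some libraries stood apart. Immunoglobulin RNA, a sign of plasma cell RNA, took 21.3 to 30.4% of counts in 4 NMUR1+ libraries (mice 1, 4, 5 and 7). The other 4 NMUR1+ libraries held 0.784 to 14.8%. In 3 NMUR1- libraries (mice 1, 4 and 5) it took 2.83 to 5.58%, against 0.146 to 0.450% in the other 5. ILC2 libraries held 0.0241 to 7.93%, with the highest shares in PBS mice 5 and 8 (7.93 and 4.49%). The NMUR1+ library of mouse 1 had only 6.14 CPM of Nmur1, within the range of the NMUR1- libraries.

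Areg was the main EGF receptor ligand in all 3 populations. Its mean level per kilobase of exon was 325 CPM in ILC2, 115 CPM in NMUR1+ T cells and 36.5 CPM in NMUR1- T cells. Hbegf, next in order, averaged 5.75, 2.21 and 1.19 CPM per kilobase in the same populations. Of the summed per-kilobase level of the 5 ligands, Areg made up 90.9 to 99.4% in the 24 libraries, with a median of 97.4%. Hbegf made up 0.487 to 7.86%. The remaining ligands were close to the limit of counting: over all 24 libraries Tgfa had 306 counts, Ereg 138 and Btc 135, against 55781 for Areg and 2215 for Hbegf. A count of 0 allows a level of up to 0.168 to 0.354 CPM, depending on the library, for counting error only.

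In ILC2, Areg was measured at 478, 352, 613 and 741 CPM in NMU mice 1 to 4, and at 208, 210, 316 and 245 CPM in PBS mice 5 to 8. Every NMU library was above every PBS library. NMU libraries averaged 546 ± 167.9 CPM and PBS libraries 245 ± 50.2 CPM (SD, n = 4 each), a log2 difference of 1.14 (SE 0.23, 95% confidence interval 0.62 to 1.66) or 2.20-fold. Areg did not pass the test over all genes: its adjusted p was 0.0679 in edgeR's quasi-likelihood test, rank 99 of 11205 genes tested, of which 74 (0.66%) passed. The call turned on the setting. Without the count filter the difference was 1.16 with an edgeR adjusted p of 0.0376, by DESeq2 it was 1.14 with an adjusted p of 7.83e-05, and without mouse 2 it was 1.30 with an edgeR adjusted p of 0.0366. Over all 14 alternatives the difference stayed between 0.95 and 1.30, with adjusted p from 7.83e-05 to 0.207, and 3 of them were past the threshold.

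Markers of other cells also differed between the ILC2 groups. The summed markers of B and plasma cells were at 173 to 1011 CPM in NMU ILC2 and 1464 to 16070 CPM in PBS ILC2, with Jchain alone at 6.92 to 925 and 1406 to 15790 CPM. On the same list Cd79b lay the other way, at 59.8 to 155 CPM in NMU ILC2 and 37.5 to 58.2 CPM in PBS ILC2, and Ms4a1 had 88 and 90 counts. Fibroblast markers summed to 0 to 28.0 CPM in NMU ILC2 and 11.1 to 379 CPM in PBS ILC2. Macrophage and dendritic cell markers summed to 25.0 to 292 CPM in NMU ILC2 and 41.8 to 619 CPM in PBS ILC2, neutrophil markers to 0 to 0.789 and 0 to 216 CPM, and epithelial markers to 37.7 to 60.9 and 12.1 to 26.6 CPM. Epcam alone stood at 32.8 to 60.9 CPM in NMU ILC2 and 8.42 to 14.4 CPM in PBS ILC2, whereas Krt8 had 13 counts under NMU and 171 under PBS, and Krt20 44 and 87. Foxp3, Itgax, Csf3r, Lum and Muc2 had 0 counts in all 4 NMU ILC2 libraries and 12, 182, 220, 745 and 49 counts under PBS. Of 5 markers of mast cells and basophils, 4 were at 0 in NMU ILC2. Among these, Fcer1a and Mcpt2 were at 0 in PBS ILC2 too, and Mcpt8 and Mcpt1 had 29 and 26 counts there. The part of all these markers in the Areg difference was not tested. In such bulk libraries fewer cells of a type and less RNA per cell cannot be told apart.

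**Figure D1:**
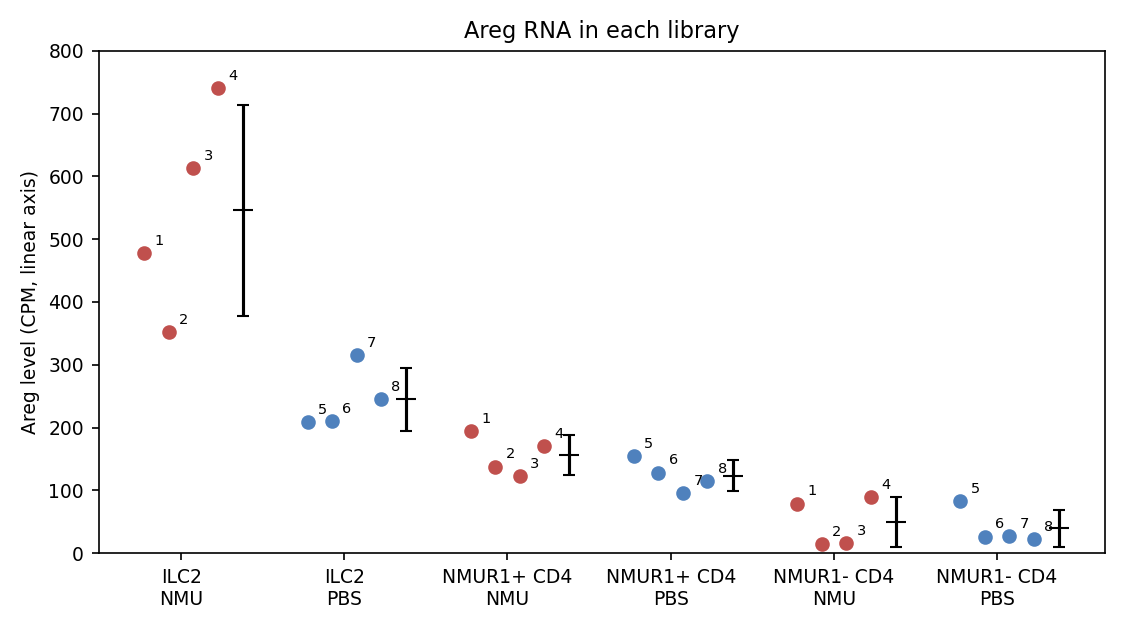
Areg level in CPM (linear axis) in each of the 24 libraries, by population and treatment; numbers give the mouse, and the bar beside each group is the mean with its SD (n = 4). The 4 NMU libraries of ILC2 lie at 352 to 741 CPM and the 4 PBS libraries of ILC2 at 208 to 316 CPM, while NMU and PBS libraries overlap in both T cell populations.

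In NMUR1+ T cells, Areg stood at 195, 138, 123 and 171 CPM in NMU mice 1 to 4 and at 154, 128, 95.2 and 115 CPM in PBS mice 5 to 8. The groups overlapped, with means of 156 ± 32.4 CPM under NMU and 123 ± 24.6 CPM under PBS (SD, n = 4 each). The log2 difference was 0.35 (SE 0.19, interval -0.07 to 0.76), with an edgeR adjusted p of 1.00. No gene of 12061 passed in this comparison (0%) by edgeR, 307 had an unadjusted p under 0.05, and DESeq2 called 2 genes and limma voom 0. The interval's upper end, 0.76, lies above the lower end of that in ILC2.

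In NMUR1- T cells, Areg spread more widely within each treatment than between them. It stood at 78.6, 14.1, 15.5 and 89.5 CPM in NMU mice 1 to 4 and at 82.5, 26.2, 26.9 and 21.9 CPM in PBS mice 5 to 8. The high libraries, of mice 1, 4 and 5, are the 3 with over 1% immunoglobulin RNA and belong to both treatments. Means were 49.4 ± 40.3 CPM under NMU and 39.4 ± 28.8 CPM under PBS (SD, n = 4 each), a log2 difference of 0.32 (SE 0.74, interval -1.39 to 2.04, edgeR adjusted p 0.954). No gene of 12103 passed (0%) by edgeR, while 877 had an unadjusted p under 0.05, and DESeq2 called 21 genes and limma voom 0. Without mouse 4 the Areg difference was -0.12, and without the 3 libraries, a choice made after seeing the data, it was -0.75 with an edgeR adjusted p of 0.178.

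Whether the NMU effect on Areg differed between populations was tested in a fit of all 24 libraries. The effect in ILC2 exceeded that in NMUR1+ cells by 0.81 on the log2 scale (SE 0.70, interval -0.64 to 2.26, edgeR adjusted p 0.700) and that in NMUR1- cells by 0.83 (SE 0.70, interval -0.63 to 2.28, adjusted p 0.768). Between NMUR1+ and NMUR1- cells the effects differed by 0.02 (SE 0.70, interval -1.44 to 1.48, adjusted p 1.00). None of the 5 ligands passed in any of these 3 tests, in which 98 (0.725%), 72 (0.533%) and 0 (0%) of 13509 genes passed by edgeR. In the comparison with 0 calls, 157 genes had an unadjusted p under 0.05, and DESeq2 called 4 genes and limma voom 0. Leaving out the 3 NMUR1- libraries over 1% immunoglobulin raised the difference between ILC2 and NMUR1- effects to 1.89 with an edgeR adjusted p of 0.0335. These libraries also held the highest Areg of their population, so the change is no independent support. Over the 15 alternatives of that difference the adjusted p ran from 0.0335 to 1.00, and 1 was past the threshold.

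Between populations, Areg was higher in ILC2 than in either kind of T cell, and higher in NMUR1+ than in NMUR1- T cells, in each of the 8 mice. Over both treatments it ranged in ILC2 from 208 to 741 CPM with a median of 334 CPM, in NMUR1+ cells from 95.2 to 195 CPM with a median of 133 CPM and in NMUR1- cells from 14.1 to 89.5 CPM with a median of 26.5 CPM. The ranges of the 3 populations did not overlap. Within a mouse, ILC2 had 1.35 to 4.99 times the Areg level of NMUR1+ cells (median 2.51) and 2.53 to 39.7 times that of NMUR1- cells (median 9.72), and NMUR1+ cells had 1.87 to 9.79 times that of NMUR1- cells (median 4.22). The ratio of ILC2 to NMUR1- levels was lowest in mouse 5 (2.53) and highest in mice 2 and 3 (25.0 and 39.7), whose NMUR1- levels were the lowest.

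The fit of all 24 libraries put Areg 1.40 higher on the log2 scale in ILC2 than in NMUR1+ cells (SE 0.35, interval 0.66 to 2.14, 2.64-fold, edgeR adjusted p 0.00368). Areg and Hbegf were the 2 of 5 ligands that passed here as higher, in a comparison in which 38.6% of 13509 genes passed and 15.1% did so as higher in ILC2. Against NMUR1- cells Areg was 3.05 higher in ILC2 (SE 0.38, interval 2.27 to 3.84, 8.29-fold, adjusted p 1.59e-06). Hbegf passed as higher too, beside 40.5% of all genes in either direction and 16.4% as higher in ILC2; the call of Btc, which entered the fit mainly through ILC2 libraries and was lost with the mouse as a block, is given further on. NMUR1+ cells exceeded NMUR1- cells by 1.65 (SE 0.36, interval 0.91 to 2.40, 3.15-fold, adjusted p 0.00545), and Areg was the only ligand of 5 called, beside 8.31% of all genes in either direction and 5.49% as higher in NMUR1+ cells. The median gene lay at -0.10, -0.12 and -0.01 in these comparisons. The 3 comparisons share libraries, so their differences are not independent of each other.

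**Figure D2:**
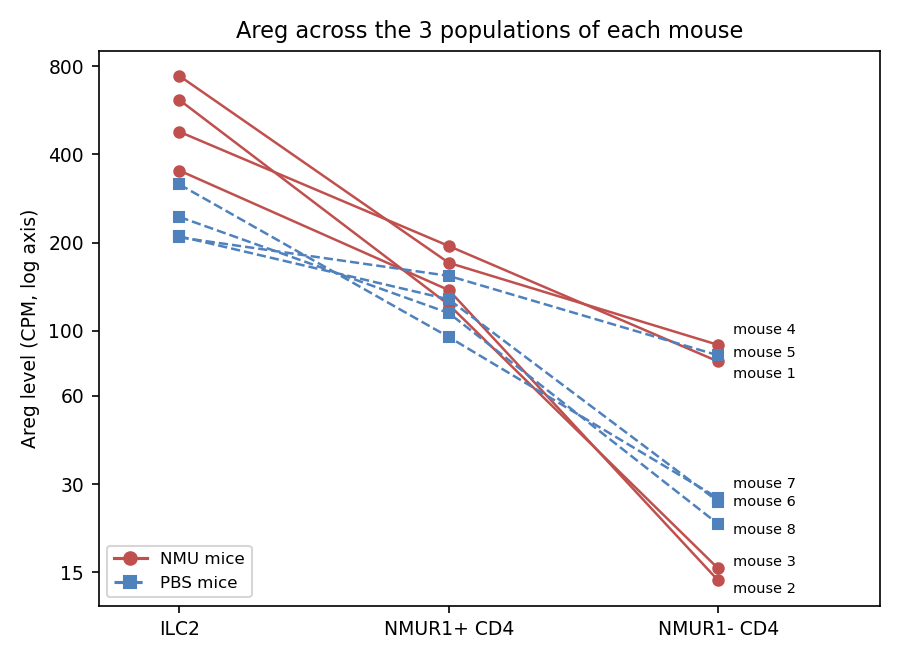
Areg level in CPM (log axis) in the 3 populations of each mouse, with lines joining the libraries of a mouse; red circles and solid lines are NMU mice, blue squares and dashed lines PBS mice. Every line descends from ILC2 to NMUR1+ to NMUR1- cells, and the NMUR1- libraries of mice 1, 4 and 5 (78.6 to 89.5 CPM) lie above the other 5 (14.1 to 26.9 CPM).

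In the order of group means, Areg ran from NMU ILC2 through PBS ILC2, NMU NMUR1+, PBS NMUR1+ and NMU NMUR1- to PBS NMUR1- cells. The libraries of PBS ILC2 (208 to 316 CPM) and NMU NMUR1+ cells (123 to 195 CPM) did not overlap, nor did those of PBS NMUR1+ (95.2 to 154 CPM) and NMU NMUR1- cells (14.1 to 89.5 CPM). NMU and PBS libraries overlapped within NMUR1+ and within NMUR1- cells.

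The NMUR1- libraries high in Areg were also higher in several other markers. The 3 libraries with 78.6 to 89.5 CPM of Areg held 6.94 to 7.84 CPM of Nmur1, against 1.60 to 3.56 CPM in the other 5. Klrg1, a surface receptor of ILC2 and effector T cells, stood at 170 to 186 CPM, against 32.02 to 124.9 CPM. Foxp3, the transcription factor of regulatory T cells, stood at 180.9 to 202 CPM, against 62.2 to 152 CPM, and Il1rl1, the IL-33 receptor, at 61.6 to 82.4 CPM, against 34.0 to 61.2 CPM. Ikzf2, another regulatory T cell marker, overlapped, at 191.3 to 214 CPM, against 65.27 to 192.3 CPM. Gata3 overlapped too, at 555.9 to 668.9 CPM, against 290.1 to 627.1 CPM. The regulatory T cell markers together overlapped at 3136 to 3567 CPM, against 2584 to 3164 CPM. So did summed ILC2 markers, at 1382 to 1560 CPM, against 1148 to 1449 CPM. Summed markers of macrophages and dendritic cells reached 483 to 725 CPM in these 3 libraries, against 167.6 to 340 CPM in the other 5. Among the 8 NMUR1+ libraries, that of mouse 1 had the highest Areg (195 CPM), Klrg1 (1201 CPM), Il1rl1 (422 CPM) and immunoglobulin share (30.4%), and the lowest Nmur1.

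**Figure D3:**
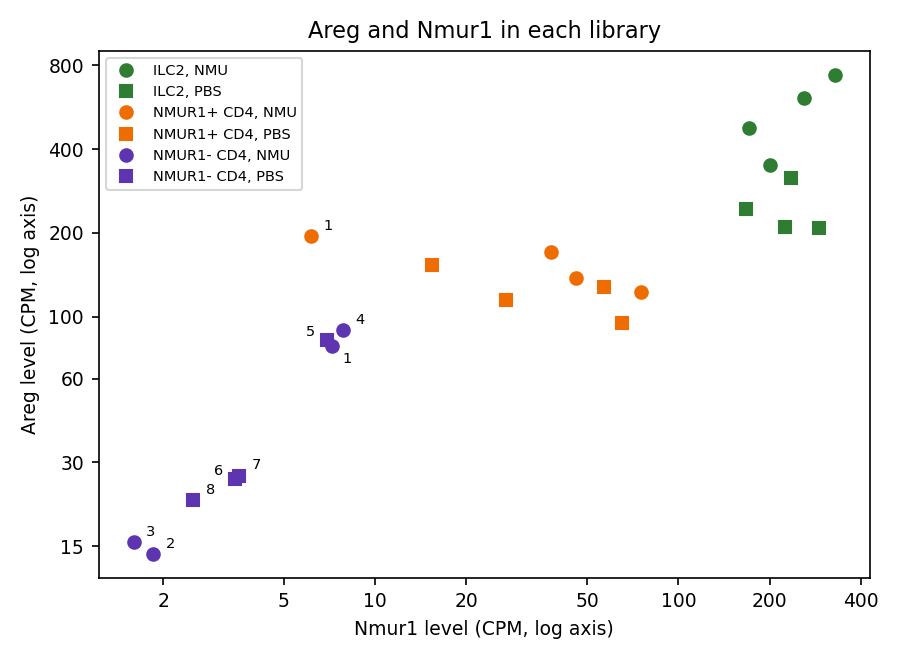
Areg against Nmur1, both in CPM on log axes, 1 point per library; colours give the population, circles NMU and squares PBS, and numbers the mouse for the NMUR1- libraries and for NMUR1+ mouse 1. The NMUR1- libraries of mice 1, 4 and 5 are highest in both genes within their population, and the NMUR1+ library of mouse 1 combines 6.14 CPM of Nmur1 with 195 CPM of Areg.

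Without the 4 NMUR1+ libraries over 20% immunoglobulin, a choice made after seeing the data, Areg in NMUR1+ against NMUR1- cells came to 1.53 with an edgeR adjusted p of 0.0860, so that the call ended. Over all 16 alternatives the difference lay between 1.501 and 2.80, with adjusted p from 9.25e-08 to 0.0860. In these sorts the regulatory T cell markers, 5 genes, summed to 3753 to 5154 CPM in NMUR1+ and 2584 to 3567 CPM in NMUR1- cells. Foxp3 stood at 154 to 307 and 62.2 to 202 CPM. The same sum was 2146 to 3786 CPM in ILC2, where Foxp3 had 12 counts, so it does not track Foxp3 alone. ILC2 markers, 8 genes, summed to 2653 to 4205 CPM in NMUR1+ and 1148 to 1560 CPM in NMUR1- cells. Gata3 alone, on this list, stood at 1100 to 1971 and 290 to 668.9 CPM. Thy1, also on it, lay the other way, at 179.7 to 325.5 CPM in NMUR1+ and 329.2 to 537.7 CPM in NMUR1- cells. Il5, an ILC2 cytokine, was at 3.74 to 79.8 CPM in NMUR1+ and 0 to 0.739 CPM in NMUR1- cells. B and plasma cell markers summed to 1177 to 96510 CPM in NMUR1+ and 197 to 10160 CPM in NMUR1- cells. Macrophage and dendritic cell markers summed to 632 to 2006 and 167.6 to 725 CPM. All these markers were read in bulk RNA, and their part in the Areg difference was not tested.

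Of 7887 genes with a mean of at least 10 CPM, those whose centred log2 profile lay closest to that of Areg over the 24 libraries were Lat2, Cd81, Wls, Klrg1 and Hlf. Their root mean square distances from Areg were 0.56, 0.57, 0.57, 0.60 and 0.62 on the log2 scale, where Areg itself varied by 1.56 about its own mean and the median gene lay 1.67 away. Lat2, a membrane adaptor protein, had means of 86.8, 64.0 and 13.5 CPM in ILC2, NMUR1+ and NMUR1- cells. Klrg1, which was part of the ILC2 gate, averaged 1165, 710 and 110 CPM in the same populations. No other ligand reached the mean of 10 CPM needed for this list.

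Hbegf, the heparin-binding ligand (gene 15200, GRCm38.p6 chromosome 18, 36504927 to 36515805), had its highest mean in ILC2, and no difference between NMU and PBS passed the test. In ILC2 it stood at 12.5, 3.38, 14.2 and 22.7 CPM in NMU mice 1 to 4 and at 11.5, 11.0, 16.2 and 17.9 CPM in PBS mice 5 to 8. The groups overlapped, and both the lowest and the highest value were in NMU mice. The log2 difference was -0.12 (SE 0.55, interval -1.35 to 1.11, edgeR adjusted p 0.963).

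NMUR1+ cells held 7.42, 6.57, 1.25 and 1.84 CPM of Hbegf in NMU mice 1 to 4 and 3.62, 14.2, 4.32 and 2.61 CPM in PBS mice 5 to 8. NMUR1- cells held 2.88, 0.322, 1.09 and 1.46 CPM in NMU mice 1 to 4 and 8.89, 4.42, 1.44 and 2.17 CPM in PBS mice 5 to 8. Both pairs of groups overlapped. The log2 differences were -0.55 (SE 0.74, adjusted p 1.00) in NMUR1+ cells and -1.55 (SE 0.68, interval -3.08 to -0.03, adjusted p 0.685) in NMUR1- cells, so neither passed edgeR's test.

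Mean Hbegf levels were 13.7 ± 5.67 CPM for ILC2, 5.24 ± 4.23 CPM for NMUR1+ and 2.83 ± 2.75 CPM for NMUR1- cells (SD, n = 8 each). It was higher in ILC2 than in NMUR1- cells by 2.47 on the log2 scale (SE 0.54, interval 1.36 to 3.57, edgeR adjusted p 0.000726), in 8 of 8 mice, and all 15 alternatives kept that call. Over NMUR1+ cells it was higher by 1.41 (SE 0.52, interval 0.34 to 2.47, adjusted p 0.0337), in 6 of 8 mice. This call rested on single mice: it was lost without mouse 3, 4, 5, 7 or 8 and without the 4 NMUR1+ libraries over 20% immunoglobulin, with adjusted p over the 15 alternatives from 0.0101 to 0.187. NMUR1+ and NMUR1- cells differed by 1.06 (SE 0.52, interval -0.01 to 2.13, adjusted p 0.236).

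Tgfa, Ereg and Btc were under the count filter in the 3 comparisons of NMU with PBS and are given as raw counts. Tgfa had 0, 0, 0 and 10 counts in ILC2 of NMU mice 1 to 4, and 19, 145, 1 and 37 counts in ILC2 of PBS mice 5 to 8. The groups overlapped through mice 4 and 7, and mouse 6 held most of the PBS sum of 202 counts, against 10 counts under NMU. Of 7 alternatives that kept the gene, none passed: its log2 difference was -4.34 without the filter (SE 2.05, edgeR adjusted p 0.374) and in the fit of all 24 libraries (SE 1.63, adjusted p 0.104). It was -8.54 without mouse 4 (SE 2.53, adjusted p 0.221), whose library held all Tgfa counts of the NMU group, and -4.75 to -3.94 without mouse 1, 2, 3 or 7. In NMUR1+ cells Tgfa summed to 33 counts under NMU and 11 under PBS, and in NMUR1- cells to 8 and 42.

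Ereg, the epiregulin gene next to Areg, had 0, 0, 21 and 36 counts in ILC2 of NMU mice 1 to 4 and 1, 0, 0 and 26 counts in ILC2 of PBS mice 5 to 8. It was thus present in 3 ILC2 libraries and near 0 in the other 5. NMUR1+ cells summed to 12 counts under NMU and 2 under PBS, and NMUR1- cells to 19 and 21.

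Btc, the betacellulin gene, had 0, 24, 46 and 0 counts in ILC2 of NMU mice 1 to 4 and 7, 0, 22 and 6 counts in ILC2 of PBS mice 5 to 8. The NMU group held both the highest counts and 2 libraries at 0. NMUR1+ cells summed to 12 counts under NMU and 10 under PBS, and NMUR1- cells to 4 and 4. Although Ereg, Areg and Btc are neighbours, the ILC2 libraries with Ereg (mice 3, 4 and 8) and those highest in Btc (mice 2, 3 and 7) shared only mouse 3.

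**Figure D4:**
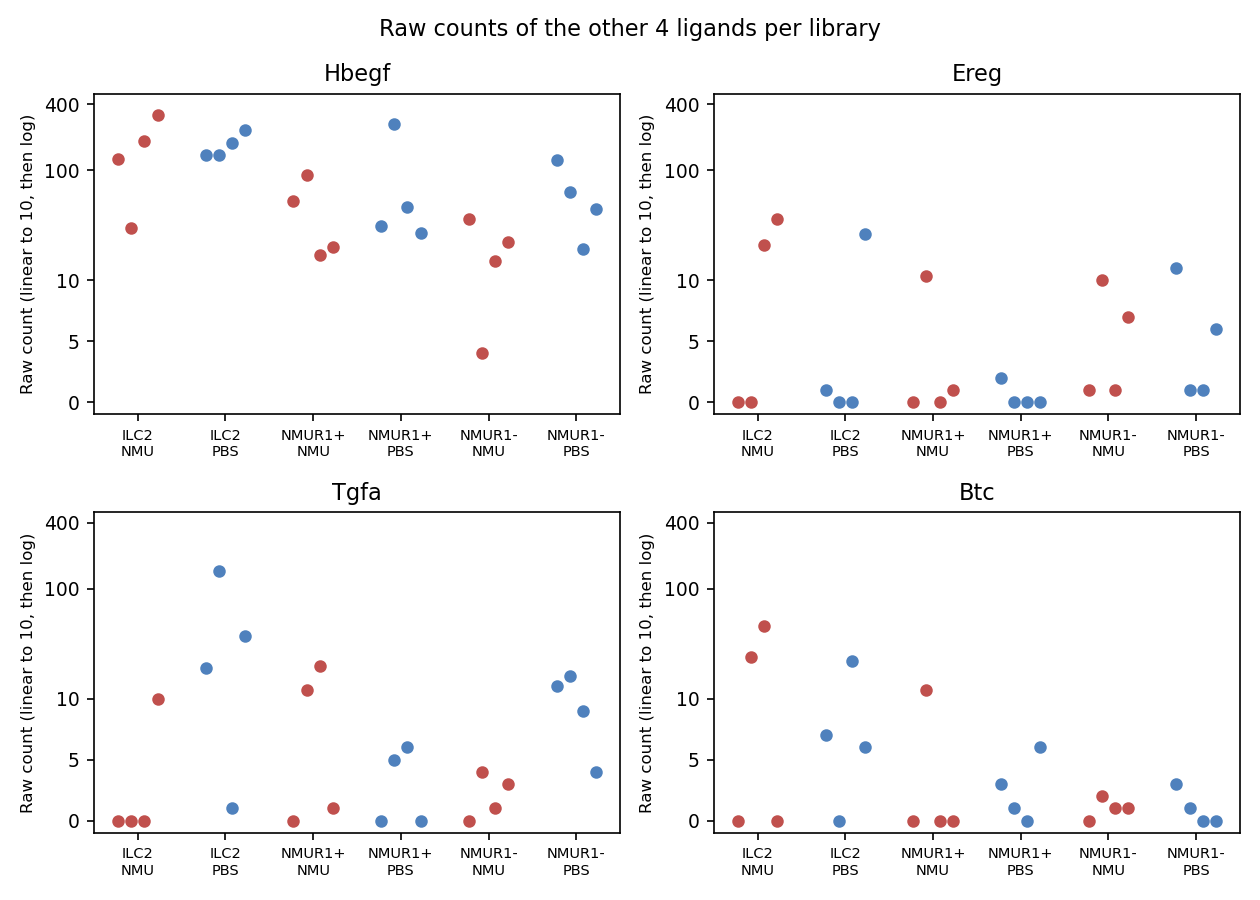
Raw counts of Hbegf, Ereg, Tgfa and Btc in each library (axis linear to 10 counts, then logarithmic), by population and treatment, with NMU in red and PBS in blue. Hbegf has counts in all 24 libraries, whereas Ereg, Tgfa and Btc are at 0 in 9, 7 and 10 libraries.

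All 5 ligands passed the filter in the fit of all 24 libraries. Btc was called there as higher in ILC2 than in NMUR1- cells, with a log2 difference of 3.75 (SE 1.30, edgeR adjusted p 0.0247). With the mouse as a block, the difference was 3.02 with an adjusted p of 0.147, and the call was also lost by limma voom and without mouse 3, 7 or 8 (adjusted p over the 14 alternatives 0.0232 to 0.147). Btc entered that fit through 3 ILC2 libraries and 1 NMUR1+ library, so its filter leaned towards ILC2. ILC2 and NMUR1+ cells differed in Btc by 2.17 (adjusted p 0.163), in Ereg by 2.64 (adjusted p 0.110) and in Tgfa by 1.24 (adjusted p 0.383). Against NMUR1- cells, ILC2 differed by 1.07 in Ereg (adjusted p 0.505) and by 1.38 in Tgfa (adjusted p 0.325). NMUR1+ and NMUR1- cells differed by -1.58 in Ereg, 0.14 in Tgfa and 1.58 in Btc, with adjusted p from 0.533 to 0.973.

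Around the ligands, a list of 27 other genes of the pathway was read by role, and 21 of them passed the filter in the fit of all 24 libraries. None of the list passed in a comparison of NMU with PBS, where 15 were tested in ILC2 and 18 in each kind of T cell, nor in a difference between NMU effects. Few of all genes passed there either: 0.66% for NMU in ILC2 and 0% in each kind of T cell. In the differences between NMU effects 0.725%, 0.533% and 0% passed, so a list of this size could be without a call at that rate. Between ILC2 and NMUR1+ cells 3 were higher and 6 lower, with a median log2 difference of -0.33, against -0.10 for all genes, of which 15.1% passed as higher and 23.5% as lower. Between ILC2 and NMUR1- cells 4 were higher and 7 lower (median -0.63, against -0.12), beside 16.4% and 24.1% of all genes. Between NMUR1+ and NMUR1- cells 5 were higher and 1 lower (median 0.30, against -0.01), beside 5.49% and 2.83% of all genes. In both comparisons with NMUR1- cells the higher genes include Nmur1, whose reporter split the sorts, so that call was set in advance.

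The other ligands on the list were scarce. Epgn, the next neighbour in the cluster at 39404 bases before Ereg, had 4 counts in all 24 libraries and Nrg3 had 0. Nrg1, a ligand of ErbB3 and ErbB4, had 2 counts in the 8 ILC2 libraries together and had means of 6.92 ± 3.97 CPM for NMUR1+ and 0.923 ± 0.623 CPM for NMUR1- cells (SD, n = 8 each). NMUR1+ cells exceeded NMUR1- cells in Nrg1 by 2.91 on the log2 scale (SE 0.72, edgeR adjusted p 0.0145), a call lost without mouse 3, 5 or 7 and without the 4 NMUR1+ libraries over 20% immunoglobulin (adjusted p 0.137). Macrophage and dendritic cell markers, 7 genes, summed to 632 to 2006 CPM in NMUR1+ and 167.6 to 725 CPM in NMUR1- cells, and their part in the Nrg1 level was not tested.

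Receptors for these ligands had little RNA in the sorted lymphocytes. Erbb4 had 0 counts in all 24 libraries, which allows up to 0.0100 CPM over the libraries together. Egfr had 82 counts in the 8 ILC2, 39 in the 8 NMUR1+ and 45 in the 8 NMUR1- libraries, and was at 0 in 6, 6 and 2 of them. Erbb2 had 108, 49 and 42 counts in the same order of populations. Erbb3, which pairs with other ErbB receptors, averaged 2.05 ± 2.62, 4.08 ± 2.48 and 3.87 ± 1.55 CPM. None of the 3 receptors tested passed between populations. For Egfr in ILC2 against NMUR1+ cells, where both NMU groups had 0 counts, the SE was 1273, so that test cannot decide. The same holds for the difference of their NMU effects on Egfr (SE 2534). Under NMU and PBS, Egfr had 0 and 82 counts in ILC2, 0 and 39 in NMUR1+ and 15 and 30 in NMUR1- cells. Erbb2 had 0 and 108, 25 and 24, and 19 and 23 counts. Single PBS libraries of ILC2 held 58 of the Egfr and 90 of the Erbb2 counts. Both genes were under the count filter for NMU against PBS.

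Several proteases that release the ligands were lower in ILC2 than in T cells. Adam17, the main sheddase of Areg, had mean levels of 57.4 ± 14.5, 122 ± 15.6 and 109 ± 12.4 CPM in ILC2, NMUR1+ and NMUR1- cells (SD, n = 8 each). Its log2 differences were -1.08 from NMUR1+ cells (SE 0.14, edgeR adjusted p 1.49e-06) and -0.93 from NMUR1- cells (SE 0.14, adjusted p 9.15e-06). Adam10, which sheds Btc among others, was also lower in ILC2, with log2 differences of -0.50 from NMUR1+ and -0.47 from NMUR1- cells (adjusted p 0.00259 and 0.00408). Adam8 (-1.05) and Adam9 (-1.56) were lower in ILC2 than in NMUR1+ cells, with no call against NMUR1- cells. Adam9 ran from 0.198 CPM, a library with 2 counts, to 32.4 CPM in NMU ILC2. Macrophage and dendritic cell markers summed to 25.0 to 619 CPM in ILC2 and 632 to 2006 CPM in NMUR1+ cells. Their part in the Adam8 and Adam9 levels was not tested. Frmd8, which stabilises the ADAM17 complex at the cell surface, was lower in ILC2 than in NMUR1- cells (-0.75). Of the 7 genes of this role, 4 were lower in ILC2 against NMUR1+ cells, beside 23.5% of all genes, 3 against NMUR1- cells, beside 24.1%, and none was higher.

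Genes that restrain the receptor moved in different directions. Errfi1, an inhibitor of the EGF receptor kinase, had mean levels of 242 ± 59.8, 69.6 ± 18.6 and 56.3 ± 17.3 CPM in the same 3 populations (SD, n = 8 each). Its ILC2 level was 1.80 higher on the log2 scale than in NMUR1+ cells (SE 0.19, edgeR adjusted p 1.34e-07) and 2.10 higher than in NMUR1- cells (SE 0.20, adjusted p 1.02e-08). Lrig1, a transmembrane protein that lowers ErbB receptor levels, was lower in ILC2 than in either T cell population, with means of 0.553 ± 0.725 CPM, against 4.78 ± 3.42 CPM for NMUR1+ and 11.3 ± 3.52 CPM for NMUR1- cells. Cblb, a ubiquitin ligase, was lower in ILC2 than in NMUR1- cells by a log2 difference of -0.64 (adjusted p 0.00510), a call lost without the 3 NMUR1- libraries over 1% immunoglobulin (adjusted p over the 15 alternatives 0.00104 to 0.0646).

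Of 5 receptors known to act upstream of Areg in lymphocytes, 2 passed between ILC2 and NMUR1+ cells, Nmur1 and Il7r, beside 38.6% of all genes. The product of Il7r was gated in ILC2 only, whereas both populations were sorted as eGFP+ by the Nmur1 reporter. Between ILC2 and NMUR1+ cells, Il1rl1 differed by 0.51 (edgeR adjusted p 0.0572), Il18r1 by -0.15 (adjusted p 0.568) and Crlf2 by -0.31 (adjusted p 0.172). Against NMUR1- cells, 4 of the 5 passed in ILC2, beside 40.5% of all genes, and 4 in NMUR1+ cells, beside 8.31%. In both comparisons Nmur1 is among the 4. Its reporter separated eGFP+ from eGFP- cells, so that call was set by the sort. Crlf2 passed in neither (edgeR adjusted p 0.401 and 0.0807). Il1rl1 was higher than in NMUR1- cells in ILC2 (2.75, adjusted p 1.14e-09) and in NMUR1+ cells (2.24, adjusted p 1.61e-06), by edgeR log2 differences. Il7r, part of the ILC2 gate as CD127, was higher in ILC2 by 1.06 than in NMUR1+ and by 1.52 than in NMUR1- cells. Il18r1 was lower than in NMUR1- cells in ILC2 (-0.85) and in NMUR1+ cells (-0.69). Of the 6 calls of the list between NMUR1+ and NMUR1- cells, that of Nmur1 was set by the sort. It and the call of Il1rl1 held under all 16 alternatives. Those of Nrg1, Adam8, Il18r1 and Il7r were lost under 4, 4, 5 and 8 of them. In ILC2 of NMU against PBS mice, Crlf2, the TSLP receptor chain, differed by 0.47 (adjusted p 0.393) and Il7r by -0.42 (adjusted p 0.253), and neither passed.

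**Figure D5:**
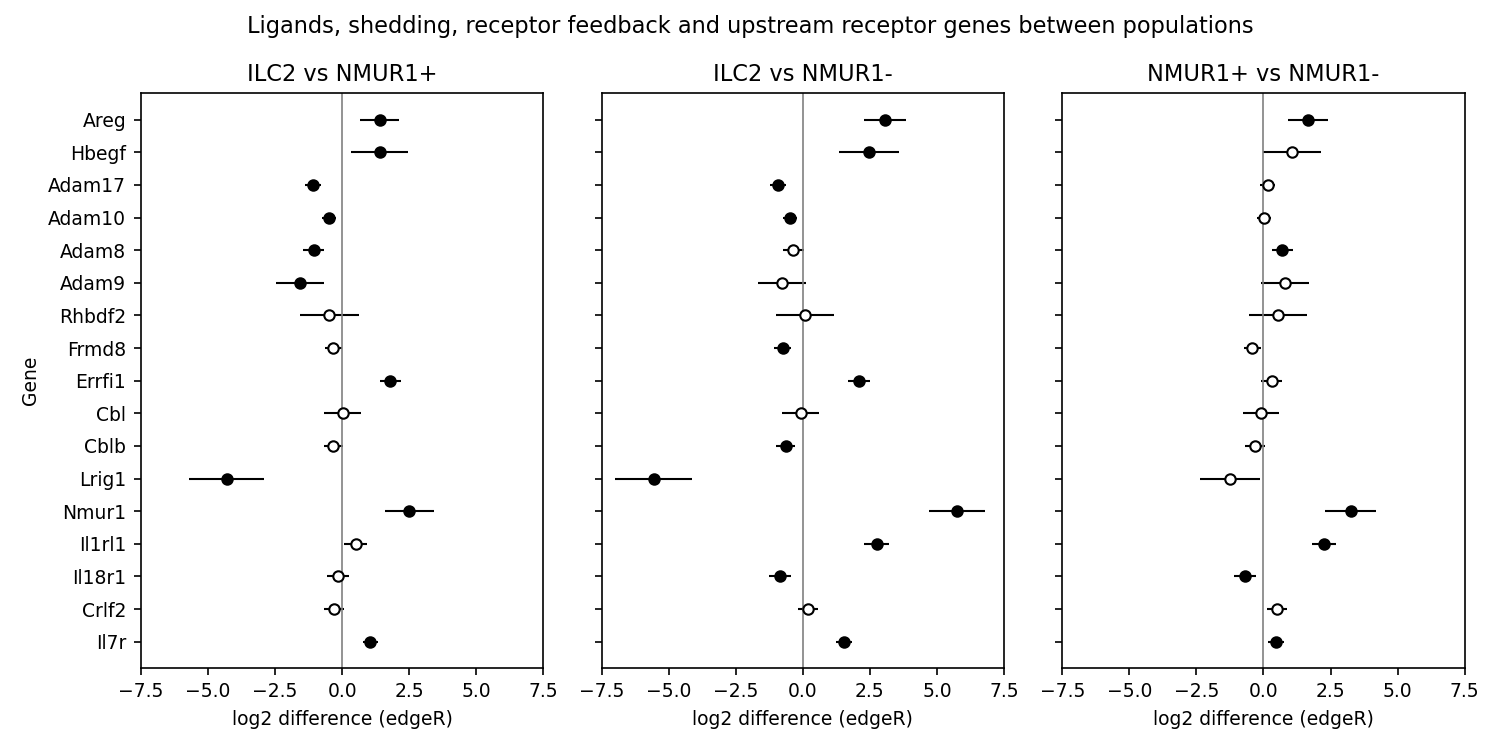
Log2 differences (edgeR, with 95% confidence intervals) of Areg, Hbegf and 15 genes of the pathway between populations; filled points passed at an adjusted p of 0.05 and open points did not, and a positive value means higher in the population named first above the panel. Areg is filled in all 3 panels (1.40, 3.05 and 1.65), while Adam17 lies below 0 in both comparisons of ILC2 and Errfi1 above 0.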

How the data were processed

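RNA of 24 libraries was measured, 1 library for each of 3 populations from 8 mice. Per the labels' protocols, RNA came from the RNeasy Micro kit and libraries from a NEBNext kit for single cells and low input; amplified reads carry no molecular identifiers, so floors cover counting error only. The submitters' processing notes name STAR 2.5.3 and mm10. How genes were counted, with which annotation and whether by strand, is not given in the sources used here. As deposited, the authors' table holds raw whole-number counts per gene, and reads shared by overlapping or antisense genes cannot be told apart in it. All 24 columns matched the labels. Of 27179 identifiers, 25275 (93.0%) could be paired with a RefSeq symbol of GRCm38.p6, the assembly behind mm10. Replicate pairs differed by a chi-square of at least 15.5 per degree of freedom, so each library counted as 1 replicate. The spread within a group holds that between mice with that of sorting and library making.

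From the counts, edgeR 4.0.16 in R 4.3.3 gave robust quasi-likelihood tests with TMM scaling, filterByExpr (minimum count 10) and Benjamini-Hochberg adjustment over all genes tested (threshold 0.05). NMU was set against PBS in the 8 libraries of a population, and populations and differences of NMU effects were tested in 1 fit of 24 libraries with 6 group means. CPM are on TMM-scaled library sizes, and levels per kilobase use the exon length of each gene. Alternatives were DESeq2 1.42.0, limma 3.58.1 (voom), DESeq2 size factors, no count filter, leaving out immunoglobulin genes and leaving out each mouse. For populations and differences of effects the mouse as a block was added, and for NMU against PBS 1 fit of 24 libraries. Leaving out libraries high in immunoglobulin RNA was chosen after seeing the data. The code was tested on simulated data. The labels tie the 3 populations to the same mouse; deviations of same-mouse libraries from their group means correlated over 8264 genes at r from -0.03 to 0.68 (median 0.20), above 0.1 in 14 of 24 pairs. The members are named in every comparison; of the pathway list, genes past the threshold and up to 3 more per role were eligible, and likeness was the root mean square difference of centred log2 CPM (prior count 2). Members and lists were chosen with earlier results of these data known.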

Additional observations from a re-analysis of the deposited data

Results flagged for a closer look

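In 30 groups of 4 libraries, each of 5 ligands in 6 groups, 7 held a library far from the other 3 by Dixon's ratio at its 95% critical value. Chance flags about 1 in 20 groups of continuous values, but this rate does not hold where the other 3 libraries are at 0, as in 3 of the 7, since any count is then flagged. Areg stood at 82.5 CPM in the NMUR1- library of PBS mouse 5, with the other 3 at 21.9 to 26.9 CPM. Hbegf stood at 14.2 CPM in the NMUR1+ library of PBS mouse 6, with the others at 2.61 to 4.32 CPM. The remaining 5 concern genes of a few counts. Ereg reached 2.01 CPM in ILC2 of PBS mouse 8 (others 0 to 0.0833 CPM), 0.803 CPM in NMUR1+ cells of NMU mouse 2 (others 0 to 0.0921 CPM) and 0.234 CPM in NMUR1+ cells of PBS mouse 5 (others at 0). Tgfa reached 0.715 CPM in ILC2 of NMU mouse 4 and Btc 0.876 CPM in NMUR1+ cells of NMU mouse 2, each with the others at 0. The NMUR1+ library of mouse 2 thus stood apart in both Ereg and Btc.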

How the results depend on the processing

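No paired analysis was possible for NMU against PBS because each mouse had 1 treatment. Between populations, the mouse as a replicate block left Areg at 1.90 (adjusted p 0.00139) in NMUR1+ against NMUR1- cells and ended the Btc call. In differences of NMU effects it gave 46, 36 and 1 called genes (main values 98, 72 and 0) and turned Ereg between ILC2 and NMUR1+ cells to 0.69. DESeq2 called 472, 2 and 21 genes for NMU in ILC2, NMUR1+ and NMUR1- cells and 516, 387 and 4 for differences of effects; 1 fit of 24 libraries called 1053 for NMU in ILC2. No count filter gave 54 for the ILC2 to NMUR1+ difference of effects, and limma voom 24, with 21 for ILC2 to NMUR1-. Areg in NMU ILC2 passed without a filter (1.16) and by DESeq2 (1.14). Leaving out each mouse gave Areg 0.95 to 1.30 in ILC2, -0.12 to 0.96 in NMUR1- cells and -0.50 to 0.44 for the NMUR1+ to NMUR1- difference of effects; called genes ran from 12 to 63 for NMU in ILC2, 0 to 1 in NMUR1+ cells, 609 to 1035 between T cells, 30 to 106 and 20 to 83 for the ILC2 differences of effects. Without the 4 NMUR1+ libraries high in immunoglobulin, 393 genes were called between T cells and 15 for ILC2 to NMUR1+, with Areg at 1.53 and -0.21 for the T cell difference of effects and Btc at 0.44. Without the 3 NMUR1- libraries, 16 genes were called for ILC2 to NMUR1-, Areg was -0.75 and its difference of effects 1.89, Tgfa between T cells was -0.032, and Ereg and Btc for ILC2 to NMUR1- were -0.51 and -0.99. By limma voom, Ereg in ILC2 against NMUR1- cells was -0.17, Tgfa between T cells -0.31, Ereg for ILC2 to NMUR1+ 0.20 and Btc for ILC2 to NMUR1- -0.64. Leaving out mice turned the sign of ligands with small or scarce differences: Hbegf under NMU at -0.53 to 0.20 in ILC2, -0.95 to 0.27 in NMUR1+ cells and -0.50 to 1.09 for their difference; Tgfa at -1.09 to 1.94, -0.67 to 1.88 and -0.42 to 0.41 over the 3 population comparisons; Ereg at -0.87 to 1.83 in ILC2 against NMUR1- cells, and -4.02 to 3.15 and -0.56 to 4.83 for ILC2 differences of effects; Btc at -0.19 to 2.55, -0.53 to 2.37 and -1.22 to 1.14 for the 3 differences of effects. Areg in ILC2 against either T cell kept its call under all 15 alternatives (1.30 to 1.54 and 2.88 to 4.22). The causes were not tested. Ereg, Tgfa and Btc had few counts in most libraries.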
